A study of Mus musculus with 6 samples.

Results

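The TCP1 ring complex (TRiC, also called CCT) was followed through its 8 subunit genes, Tcp1, Cct2, Cct3, Cct4, Cct5, Cct6a, Cct7 and Cct8, in two-cell mouse embryos with and without injection of PIASy mRNA after fertilization. Members were taken by symbol from the expression table, which gave 8 of its 53023 genes, each present as 1 row. This rule uses no measured value.

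TRiC is the chaperonin of the eukaryotic cytosol. It is built as a pair of stacked rings, each made of the 8 different subunits in a fixed order, and it closes over a newly made chain in an ATP-driven cycle. It is known above all for folding actin and tubulin, and it also handles proteins such as the cell cycle activator Cdc20 and the tumour suppressor Vhl. Nascent chains are handed to it by prefoldin, and phosducin-like proteins act beside it, while a separate set of tubulin cofactors builds the tubulin dimer after TRiC releases its parts. Since a complete ring needs every subunit, the amounts of the 8 transcripts are of interest both in themselves and relative to each other.

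RNA-seq was performed on pools of 5 two-cell embryos at 28 hours post insemination (hpi), with 2 libraries in each of 3 groups. The non-injection embryos were the control. Embryos of the PIASy-WT group had been injected at 1.5 to 3 hpi with 100 ng/µl of mRNA for wild-type PIASy, a SUMO E3 ligase, and embryos of the PIASy-Mut group with mRNA for PIASy-C335F, a mutant of its ligase function. Both messages were injected into the cytoplasm of the zygote. For development to the blastocyst stage, the authors selected injected zygotes by a fluorescence signal at 9 hpi. Whether the sequenced pools also went through this selection is not stated, and it would not apply to the non-injected control. All embryos came from ICR mice by in vitro fertilization. The question was whether the level of each subunit differed between the groups and whether the 8 differed by the same amount. The values are FPKM, fragments per kilobase of gene scaled to the total fragments of a library, and they are shares of each library. In pools of embryos, fewer cells carrying a transcript and less of it in each cell cannot be told apart.

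Between 871663 and 1363928 fragments on genes lay behind each library. Pias4, which encodes PIASy, stood at 2.98 and 3.59 FPKM in the non-injection libraries, at 862 and 611 in PIASy-Mut and at 610 and 579 in PIASy-WT. The injected message was thus high in the 4 libraries labelled as injected, and this value cannot tell the wild-type from the mutant message. Markers of the two-cell stage summed to between 1178 and 1346 FPKM in the 4 libraries without PIASy-WT and to 832 and 604 in PIASy-WT. Tcstv3 and Zfp352 carried most of this sum, at log2 fold changes of -1.14 and -0.88 against non-injection, while Usp17lc was at -0.64, Tcstv1 at -0.32, Zscan4d at -0.22 and Usp17la at 0.58. By the limma test used for the subunits, 0 of the 6 genes passed against non-injection and 1 was lower against PIASy-Mut, Tcstv3 (-1.39, limma adjusted P=0.0499). Over all 16100 genes tested, 5.76% passed as lower in PIASy-WT against non-injection and 6.01% against PIASy-Mut. A list of 7 oocyte transcripts summed to 762 and 763 FPKM in the non-injection control, 657 and 1231 with PIASy-Mut and 1724 and 1897 with PIASy-WT. Most of this sum was Bmp15, at 482 and 461 FPKM in the control and 1283 and 1478 in PIASy-WT. By the same test against non-injection, 0 of the 7 passed as higher in PIASy-WT and 1 as lower, where 1.03% and 5.76% of all genes did. The lower gene was Zp3 (log2 fold change -1.57, limma adjusted P=0.0292). Gdf9 was at 1.29, Ooep at 0.86, Nlrp5 at 0.65, Tle6 at 0.12 and Padi6 at -0.49, with a median of 0.65 over the 7. Set against PIASy-Mut, the median over the 7 was -0.16. A list of 8 cumulus and granulosa cell genes summed to 9.77 and 9.58 FPKM in the control, 9.84 and 10.5 with PIASy-Mut and 6.62 and 6.83 with PIASy-WT. Of these, Foxl2, Amh and Inhba were at 0 in all 6 libraries, Amhr2 was lower in PIASy-WT (-1.86 against non-injection, limma adjusted P=0.0427), and Tnfaip6 was at 1.05 and did not pass. All 3 sums moved with the PIASy-WT group, and their part in the results on the subunits was not tested.

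Promoter sequence was available for 7 of the 8 genes in RefSeq (GRCm38.p6), as the 250 bases before each annotated start, in 9 windows. The GC box GGGCGG was found in all 7 genes, against 32.7% of the 32851 mouse promoters searched in the same way. The 9 windows held 14 to 24 CpG and 45.2% to 66.8% GC, against a median of 6 CpG and 52.4% GC over all promoters, and the part of this base composition in the shares given here was not tested. The ETS motif CCGGAA was found in 5 genes (Tcp1, Cct2, Cct5, Cct7 and Cct8), against 12.0% of promoters, and CCAAT in 4 (Tcp1, Cct3, Cct6a and Cct7), against 33.8%. The units of the heat shock element were rarer. GAANNTTC was found in Cct2 (6.69% of promoters) and TTCNNGAA in Cct5 (7.17%), and the E-box CACGTG in 0 of the 7 genes (6.02%). Both strands were searched, and CCGGAA can share its last bases with a heat shock unit. Genes with 2 windows had more sequence to match than most promoters, and these matches are descriptions of letters, not of binding. The stretches shown here are parts of these windows that no annotated exon covers, and they are shown for 2 genes with a large difference in PIASy-WT (Cct3 and Cct8) and 2 with a small one (Cct2 and Cct7), with the GC box, the ETS motif and CCAAT on either strand in capitals.
Cct3, chr3:88297000-88297115, plus strand: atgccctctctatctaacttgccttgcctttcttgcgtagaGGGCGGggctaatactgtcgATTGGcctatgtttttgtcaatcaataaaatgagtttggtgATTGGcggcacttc
Cct8, chr16:87495880-87495998, minus strand: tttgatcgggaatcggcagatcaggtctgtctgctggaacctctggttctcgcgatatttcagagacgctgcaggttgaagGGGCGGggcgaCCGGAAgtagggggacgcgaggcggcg
Cct2, chr10:117063863-117064102, minus strand: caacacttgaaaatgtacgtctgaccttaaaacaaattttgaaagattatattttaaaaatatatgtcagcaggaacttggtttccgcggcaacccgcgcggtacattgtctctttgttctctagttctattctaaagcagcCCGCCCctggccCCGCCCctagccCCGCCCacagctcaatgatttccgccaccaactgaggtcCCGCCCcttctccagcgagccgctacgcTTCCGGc
Cct7, chr6:85451284-85451494, plus strand: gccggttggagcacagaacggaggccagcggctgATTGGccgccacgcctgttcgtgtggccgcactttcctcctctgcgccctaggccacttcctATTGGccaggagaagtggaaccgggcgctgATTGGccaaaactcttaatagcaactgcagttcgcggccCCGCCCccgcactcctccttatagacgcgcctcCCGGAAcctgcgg
Each of these 4 stretches holds a GC box. CCAAT was present in Cct3 and Cct7, and the ETS motif in Cct8, Cct2 and Cct7. The 4 genes were picked for their values, so nothing is read from these matches about the size of a difference.

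Transcripts of all 8 subunits were detected in normal two-cell embryos, at very different levels. In the non-injection control, the mean FPKM ran from 186 ± 27.2 (SD, n = 2) for Cct8 and 88.1 ± 0.709 for Tcp1 down to 10.2 ± 4.61 for Cct7. Cct3 (60.5 ± 6.12) came next to Tcp1, then Cct6a (40.7 ± 12.3), Cct2 (31.2 ± 2.80), Cct5 (30.4 ± 2.18) and Cct4 (18.9 ± 2.76). Cct6a, Cct2 and Cct5 lay within 1 SD of Cct6a from each other, while Cct8, Tcp1 and Cct3 were separated from their neighbours by more than the spread of the libraries. Among the 16100 genes with at least 1 FPKM in at least 2 libraries, the control mean of Cct8 stood at percentile 98.0 and that of Cct7 at percentile 71.1.

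All 8 subunit genes passed this filter. Differences are given as log2 fold changes of FPKM + 1 from a limma fit over all 16100 genes and 6 libraries, with P-values adjusted over all of them by the Benjamini-Hochberg method. The added 1 makes the change of low genes look smaller. Genes with an adjusted P of at most 0.05 are described as called. P-values measure the spread between these pools only.

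In PIASy-WT embryos, 3 of the 8 subunits were called lower than in the non-injection control, Tcp1, Cct3 and Cct8, the 3 with the highest FPKM in the control. Among the 8, 0 were higher. Over all genes tested, 5.76% were called lower and 1.03% higher. Among the 5185 genes with a mean FPKM in the range of the subunits, 13.5% were called lower against non-injection and 14.1% against PIASy-Mut. All 8 subunits had a log2 fold change below 0 (49.1% of all genes), except that Cct5 was at 0.019 under quantile normalization. The median was -1.22 against 0.01 over all genes, and the values ran from -2.30 to -0.29. Against PIASy-Mut, the same 3 subunits were called lower, with 6.01% of all genes lower and 0.82% higher, and the median over the 8 was -1.14, again with 8 of 8 below 0 (51.3% of all genes), though Cct2 was above 0 in 2 and Cct7 in 5 of 17 alternative settings of the processing or the samples, at most at 0.089 and 0.20, both under quantile normalization. The PIASy-WT libraries are shared by both comparisons, so the second does not repeat the first.

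**Figure D1:**
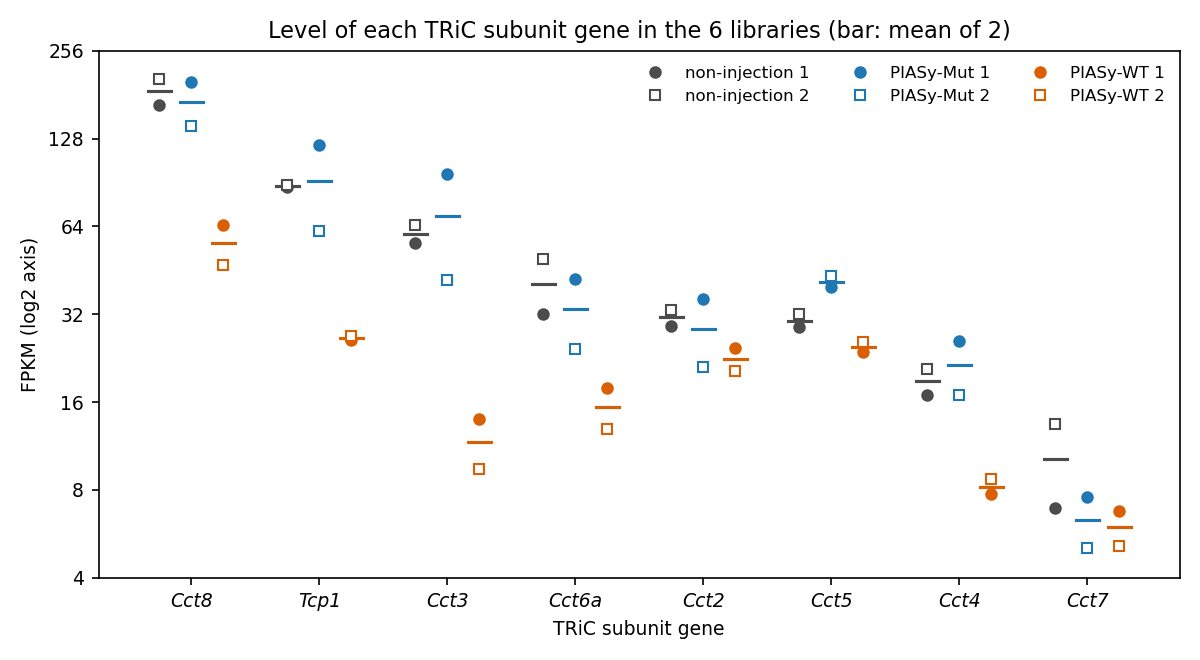
FPKM of the 8 TRiC subunit genes in each library, on a log2 axis, with genes ordered by their non-injection mean; filled circles are replicate 1, open squares replicate 2, and bars the mean of 2 libraries. Both PIASy-WT libraries lie below the other 4 for 6 genes, and for Cct2 and Cct7 they overlap with PIASy-Mut.

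Cct8 encodes the theta subunit (mm10 chromosome 16, 87483326 to 87495873, minus strand, ENSMUSG00000025613.13). It stood at 167 and 206 FPKM in the non-injection control, 200.5 and 142 with PIASy-Mut and 64.7 and 47.3 with PIASy-WT, from between 168 and 718 fragments. Both PIASy-WT libraries were far below all the others, while the PIASy-Mut libraries lay on either side of the lower control. The log2 fold change was -1.73 in PIASy-WT against non-injection (SE 0.30, 95% interval -2.45 to -1.00, limma adjusted P=0.0335) and -1.59 against PIASy-Mut (SE 0.30, adjusted P=0.0375).

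Tcp1 encodes the alpha subunit, the founding member of the family, within the t-complex region of chromosome 17 (12915701 to 12925067, plus strand, ENSMUSG00000068039.12). Its FPKM was 87.6 and 88.6 in the non-injection control, 122 and 61.6 with PIASy-Mut and 26.1 and 27.0 with PIASy-WT. The control pair and the PIASy-WT pair were each close together and lay far from each other, and the PIASy-Mut pair was the widest and stayed above PIASy-WT. Its log2 fold change came to -1.69 against non-injection (SE 0.35, 95% interval -2.55 to -0.84, limma adjusted P=0.0458) and -1.67 against PIASy-Mut (SE 0.35, adjusted P=0.0481). Both P-values were close to the threshold. Of the 17 alternative settings, Tcp1 was called in 6 against non-injection (adjusted P from 0.00373 to 0.221) and in 3 against PIASy-Mut (0.00599 to 0.198), whereas Cct3 and Cct8 were each called in 11 and 7.

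Cct3 encodes the gamma subunit (chromosome 3, 88297116 to 88321767, plus strand, ENSMUSG00000001416.13) and had the largest difference of the 8. It was measured at 56.2 and 64.8 FPKM in the non-injection control, 96.7 and 41.8 with PIASy-Mut and 14.0 and 9.42 with PIASy-WT, the last from 118 and 69 fragments. Its mean in PIASy-WT was 19.3% of the control mean and 16.9% of that of PIASy-Mut. Cct3 was also the only subunit past a log2 fold change of -2 (3.81% of all genes against non-injection and 4.06% against PIASy-Mut). Its log2 fold change came to -2.30 against non-injection (SE 0.44, 95% interval -3.37 to -1.23, limma adjusted P=0.0405) and -2.37 against PIASy-Mut (SE 0.44, adjusted P=0.0371).

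Cct4 and Cct6a, the delta and zeta subunits, stood below all other libraries in PIASy-WT without passing the adjusted threshold. Cct4 (chromosome 11, 22990519 to 23003780, plus strand, ENSMUSG00000007739.10) had 16.9 and 20.8 FPKM in the non-injection control, 25.8 and 16.9 with PIASy-Mut and 7.72 and 8.70 with PIASy-WT. Its log2 fold change was -1.11 (SE 0.32, 95% interval -1.88 to -0.33, limma adjusted P=0.0874) against non-injection and -1.25 (SE 0.32, adjusted P=0.0679) against PIASy-Mut. Cct6a (chromosome 5, 129786998 to 129846371, plus strand, ENSMUSG00000029447.11) had 32.0 and 49.3 FPKM in the non-injection control, 42.3 and 24.4 with PIASy-Mut and 17.9 and 13.0 with PIASy-WT. The gap between the higher PIASy-WT library and the lower PIASy-Mut library was smaller than the spread within PIASy-Mut. The log2 fold change of Cct6a was -1.33 (SE 0.39, 95% interval -2.26 to -0.39, limma adjusted P=0.0897) against non-injection and -1.03 (SE 0.39, adjusted P=0.151) against PIASy-Mut. Of the 17 alternative settings, Cct4 was called in 4 against non-injection and 3 against PIASy-Mut, and Cct6a in 4 and 0.

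Cct5, the epsilon subunit, which can form rings by itself when made alone in bacteria, was the flattest of the 8 between PIASy-WT and the control. It lies on chromosome 15 from 31590800 to 31601804 (minus strand, ENSMUSG00000022234.15) and had 28.9 and 32.0 FPKM in the non-injection control, 39.6 and 43.1 with PIASy-Mut and 23.7 and 25.8 with PIASy-WT. The 3 groups did not overlap, with PIASy-Mut highest and PIASy-WT lowest. The steps were small and came to -0.29 on the log2 scale against non-injection (SE 0.24, 95% interval -0.87 to 0.29, limma adjusted P=0.469) and -0.72 against PIASy-Mut (SE 0.24, 95% interval -1.30 to -0.14, adjusted P=0.117).

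Cct2 and Cct7, the beta and eta subunits, overlapped between PIASy-WT and PIASy-Mut. Cct2 (chromosome 10, 117051001 to 117063814, minus strand, ENSMUSG00000034024.8) had 29.2 and 33.2 FPKM in the non-injection control, 36.0 and 21.1 with PIASy-Mut and 24.5 and 20.4 with PIASy-WT. The higher PIASy-WT library lay between the PIASy-Mut pair. The log2 fold change of Cct2 was -0.46 (SE 0.33, 95% interval -1.26 to 0.34, limma adjusted P=0.401) against non-injection and -0.29 (SE 0.33, 95% interval -1.09 to 0.51, adjusted P=0.597) against PIASy-Mut. Cct7 (chromosome 6, 85451514 to 85468475, plus strand, ENSMUSG00000030007.8) had 6.92 and 13.4 FPKM in the non-injection control, 7.58 and 5.08 with PIASy-Mut and 6.79 and 5.13 with PIASy-WT. It rests on 30 to 103 fragments per library, and 1 control library alone stood apart from the other 5. The log2 fold change of Cct7 was -0.63 (SE 0.42, 95% interval -1.65 to 0.39, limma adjusted P=0.372) against non-injection and -0.06 (SE 0.42, 95% interval -1.08 to 0.96, adjusted P=0.944) against PIASy-Mut. The intervals against non-injection reach past the value found for Cct4, so a smaller change than that of Cct4 was not shown for Cct2 or Cct7.

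**Figure D2:**
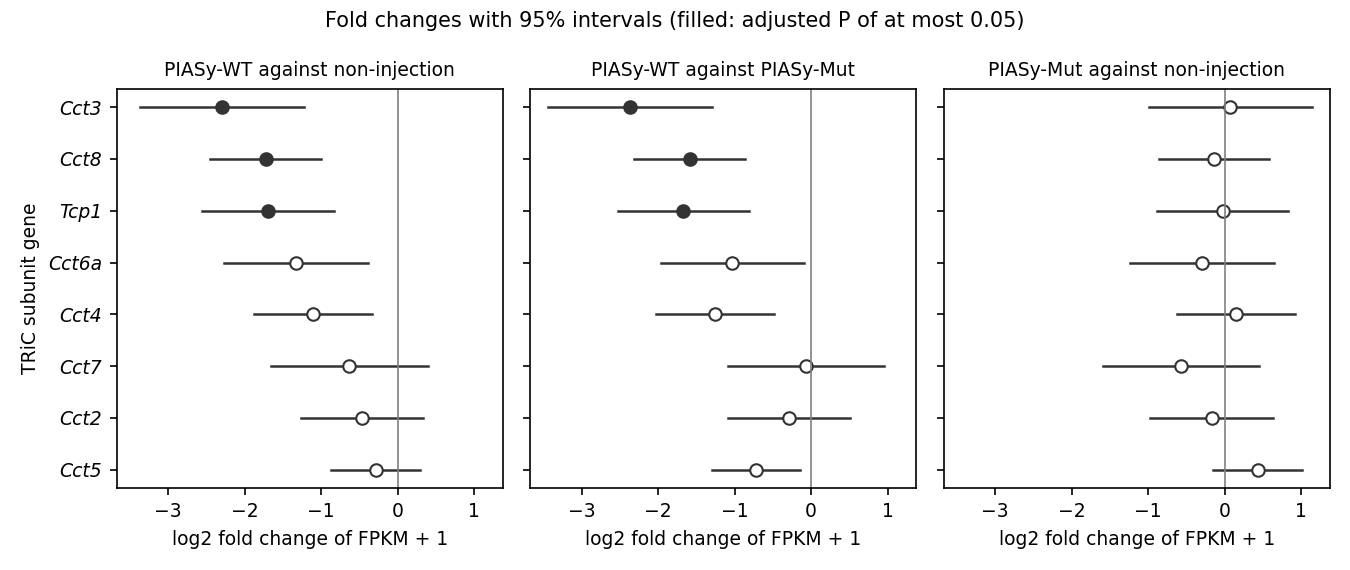
Log2 fold change of FPKM + 1 (x axis) of each subunit gene (rows) with its 95% interval from limma, in the 3 comparisons; filled points have an adjusted P of at most 0.05. Cct3, Cct8 and Tcp1 are filled in both comparisons with PIASy-WT, where their values run from -2.37 to -1.59, and no gene is filled between PIASy-Mut and non-injection.

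At an unadjusted P of less than 0.05, 5 of the 8 subunits were lower in PIASy-WT when set against non-injection (17.6% of all genes) and 6 when set against PIASy-Mut (18.2%). Counted by library, both PIASy-WT values lay below the other 4 for 6 of the 8 subunits (24.4% of all genes), the exceptions being Cct2 and Cct7, and both lay below the control pair for 8 of 8 (31.9%). A permutation of 2 against 2 libraries cannot give an exact P below 0.333, and 2 against 4 none below 0.133, so for single genes the calls rest on the variance shared across genes in the limma fit. They also rest on few libraries. With any 1 of the non-injection or PIASy-WT libraries left out, limma called 0 subunits against the non-injection control and at most 1 of all genes tested, while 3 to 5 subunits kept an unadjusted P of less than 0.05. When PIASy-Mut replicate 1 or 2 was left out, 5 were called, Cct4 and Cct6a in addition, and the share of all genes called lower rose as well, to 12.2% and 12.3%. Against PIASy-Mut, 4 were called without PIASy-Mut replicate 2 (13.2% of all genes lower) and 0 without any other library, with 4 or 5 at an unadjusted P of less than 0.05. Tcp1, Cct3 and Cct8 were lower in PIASy-WT in each of these fits.

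No subunit passed the test between PIASy-Mut and the control. In PIASy-Mut against non-injection, 0 of the 8 subunits were called by limma, 0 were lower at an unadjusted P of less than 0.05 (2.09% of all genes), 0 were higher at it, and 0 were called by voom, and over all genes 0.0% were called lower and 0.00621% higher. The log2 fold changes ran from -0.57 for Cct7 to 0.43 for Cct5, with a median of -0.08 and 5 of 8 below 0 (45.4% of all genes). The median rested on the PIASy-Mut libraries, at -0.51 without replicate 1 and 0.29 without replicate 2. For Tcp1 the value was -0.03 (95% interval -0.88 to 0.83), for Cct3 0.08 (-0.99 to 1.15) and for Cct8 -0.14 (-0.86 to 0.59). The intervals leave room for a change in either direction. Cct5 was the only subunit whose PIASy-Mut libraries both lay above the control pair (15.0% of all genes), at a log2 fold change of 0.43 (95% interval -0.15 to 1.01, limma adjusted P=1.0), and 0 had both below (10.8%).

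The make-up of the summed subunit transcripts in PIASy-WT was set beside that of the other groups as a description, without a test. The summed FPKM of the complex was 425 and 508 in the non-injection control, 570.0 and 356 with PIASy-Mut and 185 and 157 with PIASy-WT. Of this sum, Tcp1, Cct3 and Cct8 together made up 73.2% and 70.7% in the control, 73.5% and 68.9% with PIASy-Mut and 56.5% and 53.4% with PIASy-WT. These 3 are the genes called lower in the same libraries, so the direction of this share follows from how they were picked. The range of levels was narrower in PIASy-WT. The highest subunit, Cct8, stood 24.1 and 15.3 times above the lowest, Cct7, in the control, 26.5 and 27.9 times with PIASy-Mut and 9.54 and 9.22 times with PIASy-WT.

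**Figure D3:**
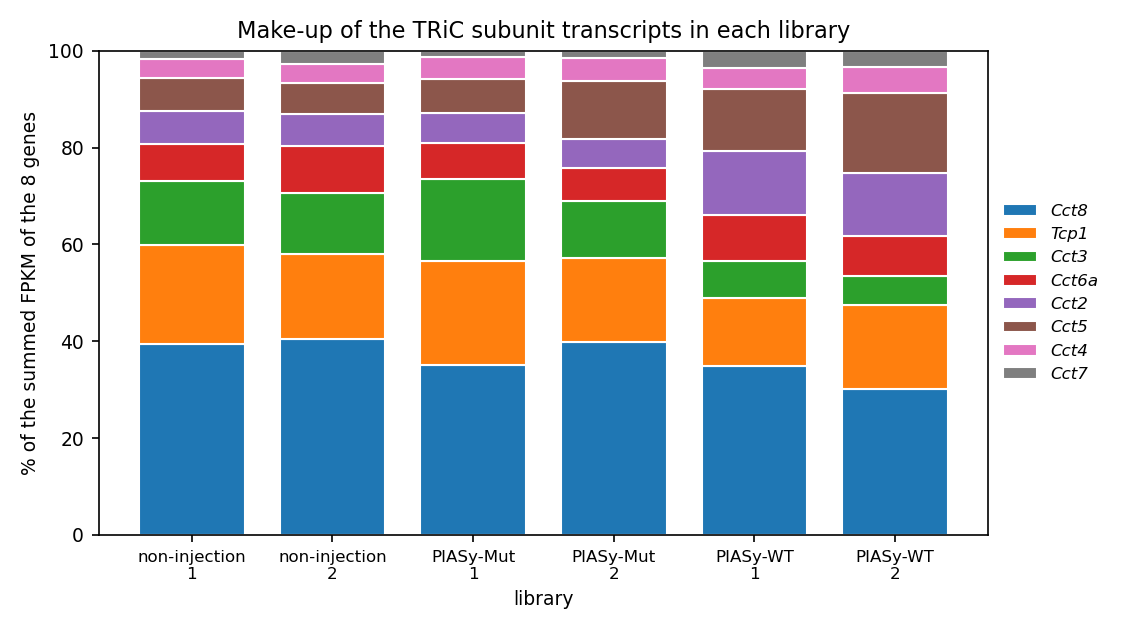
Share of each subunit gene in the summed FPKM of the 8 genes (y axis, %) in the 6 libraries (x axis). Cct8, Tcp1 and Cct3, the lowest 3 blocks of each bar, fill 68.9% to 73.5% of the bar in the 4 libraries without PIASy-WT and 53.4% and 56.5% in PIASy-WT.

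By FPKM, the order of the subunits changed in the middle and not at the ends. Cct8 held place 1, Tcp1 place 2, Cct4 place 7 and Cct7 place 8 in all 6 libraries. Cct3 held place 3 in both control libraries, 3 and 4 in PIASy-Mut and 6 in both PIASy-WT libraries, while Cct2 was at place 5 in the control and at 3 and 4 with PIASy-WT. Relative to Cct5 in the same library, Cct3 was at a ratio of 1.94 and 2.03 in the control, 2.44 and 0.969 with PIASy-Mut and 0.589 and 0.365 with PIASy-WT. Cct8 was at 5.79 and 6.43 times Cct5 in the control, 5.07 and 3.28 with PIASy-Mut and 2.73 and 1.84 with PIASy-WT. In PIASy-Mut replicate 2, both ratios thus lay between those of the control and of PIASy-WT. Cct5 was the flattest subunit between PIASy-WT and the control, and Cct3 and Cct8 were called lower. The direction of these ratios in PIASy-WT thus follows from how the genes were picked. The steadiest pair was Tcp1 over Cct8, at 0.524 and 0.431 in the control, 0.606 and 0.435 with PIASy-Mut and 0.403 and 0.570 with PIASy-WT, and the most variable was Cct3 over Cct7. No test was run on these ratios.

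Levels between genes depend on the length used. The table divides by all exonic bases of a gene, from 1.29 times the longest coding transcript for Cct8 to 3.22 times for Cct3. Per kilobase of that transcript, Cct8, Cct3 and Tcp1 were still the 3 highest genes in both control libraries, with Cct3 before Tcp1, and the highest gene stood 11.2 and 7.53 times above the lowest in the control, 14.8 and 12.9 times with PIASy-Mut and 6.39 and 4.28 times with PIASy-WT. On this scale the ends of the order changed too. Cct3 was first in PIASy-Mut replicate 1 and Cct8 in the other 5 libraries, Tcp1 was in place 3 in the 4 libraries without PIASy-WT and in place 2 in PIASy-WT, and Cct4 was last in non-injection replicate 2 and PIASy-WT replicate 1, with Cct7 last elsewhere. For Cct6a, which GENCODE M21 lists with 0 coding transcripts, the longest transcript was used. Fold changes between groups depend on this length only through the added 1.

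In the non-injection and PIASy-Mut groups, the subunits differed between the libraries largely in one direction. All 8 were higher in non-injection replicate 2 than in replicate 1 (53.3% of all genes tested), and 7 of 8 were lower in PIASy-Mut replicate 2 than in replicate 1 (48.0% of all genes), with a median difference of -0.66 on the log2 scale and Cct5 as the exception. In PIASy-WT, 5 of 8 were lower in replicate 2 (46.1%). PIASy-Mut replicate 2 had the fewest fragments, 871663, and an oocyte marker sum of 1231 FPKM against 657 in its partner, of which Bmp15 made up 745 and 328, and the part of either in this difference was not tested.

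Several subunit genes share bases with neighbours, and whether counting used the strand is not stated. Tcp1 shares 141 exonic bases with Mrpl18, a mitochondrial ribosomal protein gene on the other strand, which stood at 106 and 116 FPKM in the control, 132 and 108 with PIASy-Mut and 113 and 129 with PIASy-WT. The groups of Mrpl18 overlapped, with 0.12 on the log2 scale against non-injection (limma adjusted P=0.763). Cct8 shares 192 bases with Usp16, a histone H2A deubiquitinase, at 87.5 and 103 FPKM in the control, 147 and 109 with PIASy-Mut and 89.1 and 102 with PIASy-WT, a log2 difference of 0.01 to non-injection (limma adjusted P=0.996) and of -0.40 to PIASy-Mut (adjusted P=0.370). Psph, which shares 452 bases with Cct6a, reached at most 7.84 FPKM, and Acat3, which shares 571 bases with Tcp1, at most 2.57. Pradc1, which shares 214 bases with Cct7, stood at 17.1 to 32.9 FPKM, above Cct7 itself in every library. The small RNA genes Gm26130 in Tcp1 and Snora15 in Cct6a were at 0 or 1 fragment. Among stretches of 50 bases of the annotated transcripts, 13.9% of those of Tcp1 and 15.4% of those of Cct6a occurred in another gene, mostly Acat3 and Psph, against 4.28% for Cct8, 0.793% for Cct3, 2.89% for Cct7 and 0.364% for Cct4, and 0 for Cct2 and Cct5.

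Of 11 other genes whose symbols start with Cct and a digit or with Tcp1, 6 passed the filter on low values and 0 of these 6 were called in any comparison of the limma fit used for the subunits. With PIASy-WT, 5.76% of all genes were called lower against non-injection and 6.01% against PIASy-Mut, so little can be read from 0 of 6. The median of the 6 was -0.20 and -1.07 in these comparisons. Several of the 11, the Tcp11 genes included, share only the start of the symbol with the chaperonin. The one close relative with a sizeable level was Cct6b, known as the testis form of the zeta subunit. Cct6b had 21.6 and 9.93 FPKM in the control, 17.1 and 5.52 with PIASy-Mut and 2.82 and 2.32 with PIASy-WT. Its PIASy-WT libraries were the lowest, with a wide spread in the other groups, and its log2 fold change came to -2.14 (SE 0.59, limma adjusted P=0.0822) against non-injection and -1.61 (SE 0.59, adjusted P=0.146) against PIASy-Mut. In 5 of the 17 alternative settings Cct6b was called against non-injection, by voom (adjusted P=0.0388) and by limma with a filter of 5 FPKM (0.0462) and with only the groups compared (0.0350) among them. The pseudogene Tcp1-ps1 was at 0 in all libraries.

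The genes listed as partners of TRiC were split. Of 12 genes for prefoldin subunits, prefoldin-like and phosducin-like proteins, 11 were tested, and 3 were called lower in each comparison with PIASy-WT, with 0 higher and a median log2 fold change of -0.70 against non-injection. Over all genes, 5.76% and 6.01% were called lower, and at the level of the subunits 13.5% and 14.1%. They were Pfdn6, a subunit of prefoldin, and Uxt and Pdrg1, members of the prefoldin-like complex, named here after their values were seen. Pfdn6 differed by -2.94 on the log2 scale from non-injection (SE 0.39, limma adjusted P=0.0251) and by -3.44 from PIASy-Mut (SE 0.39, adjusted P=0.0221). Pdrg1 had -2.67 and -2.66 and Uxt -1.92 and -2.37 in the same order. These values rest on few fragments in PIASy-WT replicates 1 and 2, 6 and 3 for Pfdn6, 9 and 6 for Uxt and 22 and 11 for Pdrg1. Uxt was near the threshold against non-injection (limma adjusted P=0.0409) and was called there in 9 of the 17 alternative settings, with adjusted P from 0.0199 to 0.220. The 4 most abundant genes of the list did not pass the test. Vbp1 stood at 249 and 163 FPKM in the control and 124 and 122 in PIASy-WT (log2 fold change -0.71), Pfdn5 at 144 and 141 and at 117 and 114 (-0.30), Pfdn1 at 32.7 and 23.0 and at 72.2 and 48.5 (1.08), and Pfdn2 had a log2 fold change of -0.70.

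Of 6 tubulin cofactors, 5 were tested and 1 was called lower in each comparison with PIASy-WT, where 5.76% and 6.01% of all genes were. This was Tbcb, which binds alpha-tubulin, at 93.0 and 79.7 FPKM in the control, 130 and 67.6 with PIASy-Mut and 12.0 and 9.05 with PIASy-WT. The log2 fold change of Tbcb was -2.93 (SE 0.37, limma adjusted P=0.0247) against non-injection and -3.05 (SE 0.37, adjusted P=0.0224) against PIASy-Mut. Tbca, which holds beta-tubulin, did not pass at -0.07 and 0.27, nor did Tbcc at -1.92 and -1.59 (adjusted P=0.0700 and 0.103) or Tbce at -0.46 and -0.60. Tbcc was called in 5 and 2 of the 17 alternative settings, and without PIASy-Mut replicate 2 its value against PIASy-Mut was -2.29 (limma adjusted P=0.0181).

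Among 14 client genes, all tested, the median difference from non-injection to PIASy-WT was 0.16 on the log2 scale, while that of the subunits was -1.22. The lists were not matched in level. Tuba1a, Fzr1, Actg1, Tuba1b and Tubb2b had means of 1.25 to 5.94 FPKM over the libraries, below the lowest subunit mean of 7.49. Their log2 fold changes ran from 0.02 to 1.60, and their part in the client median was not tested. In PIASy-WT, 1 client was called lower when set against the control and 2 when set against PIASy-Mut, and 0 were higher. These counts of 14 lay near the shares over all genes (5.76% and 6.01%) and over genes at the level of the subunits (13.5% and 14.1%). Vhl, named after its values were seen, stood at 23.7 and 36.3 FPKM in the control, 40.1 and 31.0 with PIASy-Mut and 4.03 and 4.64 with PIASy-WT (log2 fold change -2.51, SE 0.32, limma adjusted P=0.0251, and -2.77 against PIASy-Mut, adjusted P=0.0223). The beta-tubulin gene Tubb4b had 121 and 123 FPKM in the control, 215 and 98.9 with PIASy-Mut and 39.7 and 40.8 with PIASy-WT, and lay on either side of the threshold, at -1.83 against PIASy-Mut (SE 0.38, limma adjusted P=0.0472) and -1.58 against non-injection (adjusted P=0.0626). It was called in 3 and 5 of the 17 alternative settings, respectively. Actb, cytoplasmic actin, was at 65.4 and 65.4 FPKM in the control and 104 and 96.8 in PIASy-WT (log2 fold change 0.61, adjusted P=0.182), and Tubb2a had 0.75 and Cdc20 -1.37 against non-injection, none of which passed, though Cdc20 did in 3 of the 17 alternative settings. In PIASy-Mut against non-injection, 0 genes of these 3 lists were called. With only the groups compared, Pfdn6, Pdrg1, Uxt, Tbcb, Vhl and Tubb4b all lost their calls against PIASy-Mut (limma adjusted P from 0.0681 to 0.0877). In that fit, 0.0% of all genes were called lower.

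**Figure D4:**
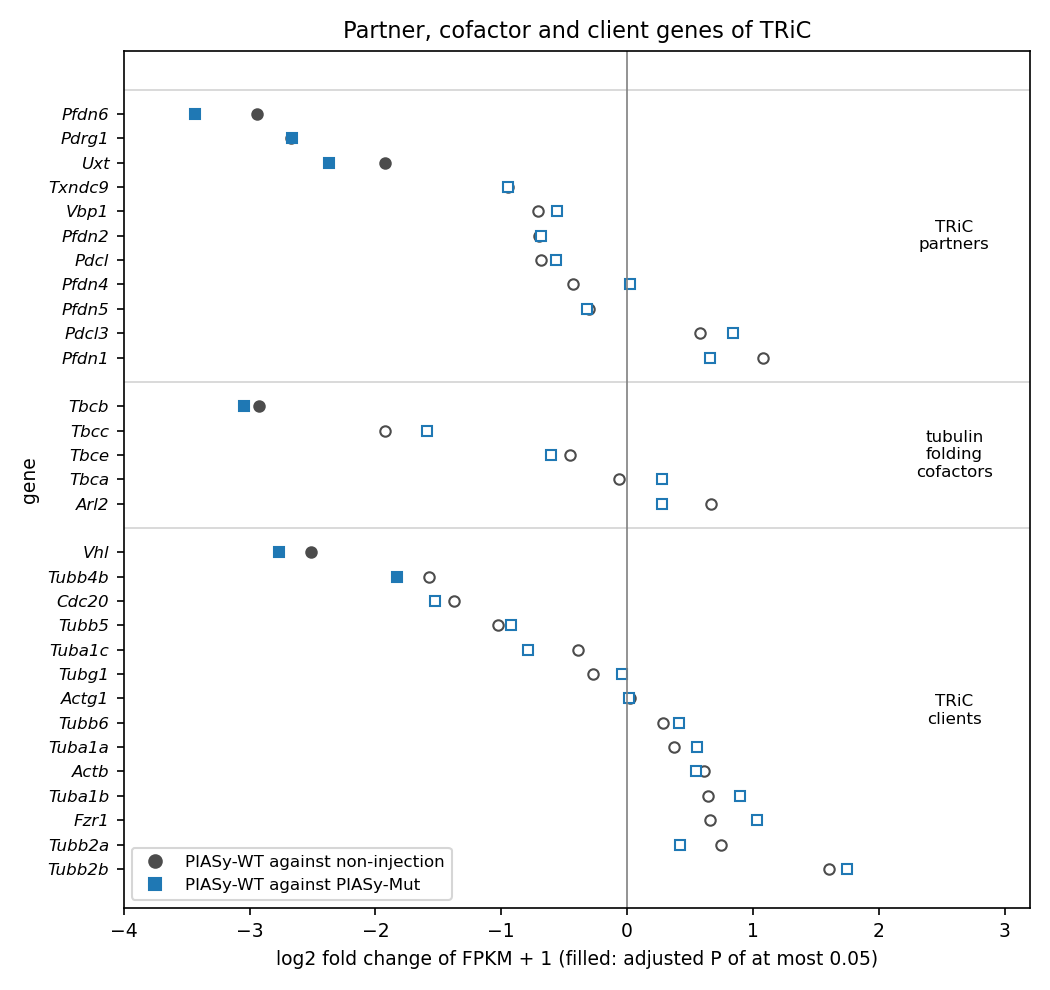
Log2 fold change of FPKM + 1 (x axis) of the tested partner, cofactor and client genes (rows) in PIASy-WT against non-injection (circles) and against PIASy-Mut (squares); filled symbols have an adjusted P of at most 0.05. Pfdn6, Pdrg1, Uxt, Tbcb and Vhl are filled in both comparisons, all at -1.92 or lower, and Tubb4b in 1.

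The mean profile of the 8 subunits over the 6 libraries was compared with that of 4713 other genes with a mean of at least 10 FPKM, by the root mean square difference of centred log2 values. The closest were Ubxn4, a cofactor of the p97 ATPase at the endoplasmic reticulum (0.06), Cfap20, a ciliary protein (0.08), Kars, the lysyl-tRNA synthetase (0.08), and Ssna1, a centrosomal protein (0.09). Ubxn4 had 59.8 and 76.5 FPKM in the control, 88.8 and 53.4 with PIASy-Mut and 29.8 and 27.3 with PIASy-WT, so that the 6 libraries fell in the order that the summed subunit FPKM gives. Measured the same way, Cct4 was at 0.14 and Cct6a at 0.15 from the mean profile, Cct8 at 0.25 and Tcp1 at 0.29, and Cct2 at 0.37, Cct5 at 0.44, Cct7 at 0.46 and Cct3 at 0.59 were farther away. Set among the 4713 other genes by this distance, Cct4 would rank 48, Cct6a 56, Cct8 349 and Tcp1 532. Cct2 would rank 917, Cct5 1244, Cct7 1323 and Cct3 1868, although each subunit is part of the mean profile. With 6 libraries in 3 groups, these distances describe likeness only.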

How the data were processed

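Per the labels, cDNA was made with SMART-Seq v4 (11 cycles) and libraries with Nextera XT (13 cycles). The authors trimmed reads with Trim Galore, aligned them with STAR (mm10) and counted fragments that mapped uniquely with featureCounts, and they deposited FPKM for 53023 genes. The annotation release and strand setting are not given in the sources used here. Gene lengths equal the exonic lengths of GENCODE M21 for the 8 subunits. Spike-in RNA was added at lysis, but the table has 0 spike-in rows, so total RNA per embryo was not compared. FPKM times gene length gave whole fragments for 100% of values (tolerance 0.01). Without molecular identifiers, fragment counts cover counting error only.

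FPKM was tested as log2(FPKM + 1) with limma 3.58.1 (R 4.3.3, lmFit and eBayes with a trend, no block, 3 residual and 3.12 prior degrees of freedom), over genes that reached an FPKM of 1 in 2 or more libraries, and the fit was tested on simulated data. The authors used DESeq2 on counts, which was not run here. Voom on recovered fragments was an alternative. Groups and replicate numbers follow the labels. The members and lists were chosen with earlier results of these data known. Named were the 8 subunits, genes overlapping them, the 4 most abundant genes of each list and the genes most like the mean profile, of which 1 is not reported here.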

Additional observations from a re-analysis of the deposited data

How the results depend on the processing

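Over 17 alternative settings, 6 of which left out 1 library each, Tcp1, Cct3 and Cct8 were lower in PIASy-WT in every setting of both comparisons, but the calls were near the threshold. In PIASy-WT against non-injection, 3 subunits were called, and 2 were called at a pseudocount of 0.1 or of 5, under quantile normalization, median-ratio scaling or a replicate block, with Tcp1 as the subunit lost. The count was 0 with no filter on low values or without a trend in the variance, 3 with a filter of 5 FPKM or a robust fit, and 5 by voom or with only the groups compared. The share of all genes called lower, 5.76% as reported, was 4.34% to 4.80% where 2 subunits were called, 0.553% with no filter, 1.59% without a trend, 17.4% with the filter of 5 FPKM, 5.51% in a robust fit, 12.0% by voom and 13.8% with only the groups compared. Against PIASy-Mut, where 3 were also called, it was 2 at either pseudocount, in a robust fit or with a replicate block, 0 with no filter, without a trend, under quantile normalization, under median-ratio scaling or with only the groups compared, and 4 by voom or with a filter of 5 FPKM. There the share of all genes, 6.01% as reported, was 4.76% to 5.46% where 2 subunits were called, 0.0% to 3.91% where 0 were, 10.8% by voom and 17.9% with the filter of 5 FPKM. These counts of 0 with PIASy-WT, from limma fits that left out no library of the groups compared, came with 4 to 6 subunits at an unadjusted P of less than 0.05. Without 1 library each time, the counts were 0 to 5 against non-injection and 0 to 4 against PIASy-Mut, with the lone library of a group assumed to vary like the others. For PIASy-Mut against non-injection the count was 0 in all settings. The count past a log2 fold change of 2 in size, 1 in both comparisons with PIASy-WT, was 0 against non-injection at a pseudocount of 5, with no filter and without a trend, and 0 against PIASy-Mut with no filter, without a trend, under both scalings and with only the groups compared, and ran from 0 to 1 and from 0 to 2 with 1 library left out. Where a count fell or rose, the cause was not tested.

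The deviations of libraries with the same replicate number correlated at 0.00 to 0.09 between groups, so no strong shared shift was seen. These values cannot show whether libraries with the same number were prepared together. With the replicate block, 2 subunits, Cct3 and Cct8, were called in each comparison with PIASy-WT. The block ended the calls of Tcp1 (adjusted P=0.0549 against non-injection and 0.0568 against PIASy-Mut), of Uxt against non-injection (0.0569) and of Tubb4b against PIASy-Mut (0.0538), all by limma, and changed no other call among the named subunits, partners, cofactors and clients.

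Quantile normalization moved the median log2 fold change of all genes against non-injection from 0.01 to 0.12 and that against PIASy-Mut from -0.03 to 0.11, and the median of the 8 subunits to -0.96 and -0.80. Results that changed sign ran from -0.52 to 0.46 after the change and were not called under that setting (adjusted P of 0.594 or more). Against non-injection, these were Cct5 (0.019) and Tbca (0.12) under quantile normalization and Tbca (0.011) under median-ratio scaling. Against PIASy-Mut, Cct2 (0.089), Cct7 (0.20) and Pfdn5 (0.033) changed sign under quantile normalization, and Cct7 under median-ratio scaling (0.051) and by voom (9.3e-05). In PIASy-Mut against non-injection, Cct3 did so under quantile normalization (-0.0075). Other results changed sign in only some of the fits with 1 library left out, and their ranges over all of these fits are given here. Against non-injection, they ranged from -0.24 to 0.11 for Tbca, from -0.10 to 0.12 for Usp16 and from -0.95 to 0.037 for Tbce. They ranged from -0.66 to 0.081 for Cct2, from -0.31 to 0.19 for Cct7, from -0.049 to 0.60 for Tbca and from -0.13 to 0.17 for Mrpl18 against PIASy-Mut. In PIASy-Mut against non-injection they ranged from -0.52 to 0.67 for Cct3, from -0.68 to 0.087 for Cct6a, from -0.39 to 0.11 for Cct8, from -0.14 to 0.44 for Cct4, from -0.51 to 0.46 for Tcp1 and from -0.54 to 0.20 for Cct2. Among the subunits, depth was lowest for Cct7 in PIASy-Mut replicate 2, at 30 fragments. Some genes of the other lists had fewer, such as Pfdn6 with 3 in PIASy-WT replicate 2.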
